A study of Homo sapiens with 267 samples.

Results

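K562 cells treated with imatinib and carrying CellTracker Orange were compared with untreated K562 cells carrying CellTracker Green from the same run. A run is the set of libraries that share a title prefix, and the labels do not say whether it was 1 capture. K562 is a human chronic myelogenous leukaemia line driven by the BCR-ABL fusion kinase, and imatinib is an inhibitor of that kinase. The libraries were those of the run whose Orange labels name imatinib at 1 µM for 1 h, and a library was kept when at most 70% of its reads fell in its top 500 genes and when it held fewer than 10000 genes at more than 2 reads. Of the 96 libraries of the run, 91 were kept, 43 of 45 Orange and 48 of 51 Green, from a series of 267 libraries. The study asked whether cells preserved with a reversible cross-linker give transcriptomes like those of fresh cells, and each dyed run mixed a drug-treated and an untreated population. A second dyed run, with benzene at 10 mM for 3 h in its Orange cells and an untreated Green population, gave 32 Orange and 30 Green libraries by the same rule. Cells were captured in the microfluidic sites of the C1 system, and the libraries were made from full-length cDNA with the SMARTer chemistry.

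The labels of the run name the drug but no separate cultures, so each stain was 1 sample and no p-value was computed. The dye and the drug sit on the same libraries, and their effects cannot be told apart within the run. In the study, each experiment compared fresh cells, captured immediately, with cells fixed with dithio-bis(succinimidyl propionate) and captured days later. A run may therefore hold more than 1 capture. The labels do not say which library held a fixed cell, so the number of fixed cells per stain is not known. The part of fixation or capture in any result below was not tested.

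BCR-ABL is a constitutively active tyrosine kinase that drives the RAS, RAF, MEK and ERK cascade, the transcription factor STAT5 and the PI3 kinase and AKT arm. Active ERK phosphorylates factors bound at serum response elements, and the immediate-early genes, such as EGR1, FOS and IER2, are transcribed within minutes without new protein synthesis. Their messages are short-lived, so their level follows recent signalling closely. STAT5 binds the GAS element and drives CISH, PIM1 and SOCS2, and AKT keeps FOXO factors out of the nucleus.

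Promoter sequences are shown for 3 genes, EGR1 (an output of ERK), CISH (an output of STAT5) and DUSP1, a phosphatase of MAP kinases. DUSP1 is listed below among the immediate-early genes, as EGR1 is, and its promoter also responds to cAMP and stress signals. Each is the 250 bases before the gene's start from RefSeq (GRCh38.p14), written 5′ to 3′ on the gene's strand, at chr5:138465229-138465478 on the plus strand for EGR1, chr3:50611775-50612024 on the minus strand for CISH and chr5:172771196-172771445 on the minus strand for DUSP1. Capitals mark matches, on either strand, to the CArG box bound by serum response factor, the cAMP response element TGACGTCA, the GAS element TTCNNNGAA and the EGR site GCGNGGGCG.
EGR1: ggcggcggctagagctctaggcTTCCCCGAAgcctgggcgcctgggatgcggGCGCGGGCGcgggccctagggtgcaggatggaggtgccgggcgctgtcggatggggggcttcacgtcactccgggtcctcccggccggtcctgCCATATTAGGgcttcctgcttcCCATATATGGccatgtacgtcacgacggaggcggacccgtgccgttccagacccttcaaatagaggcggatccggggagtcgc
CISH: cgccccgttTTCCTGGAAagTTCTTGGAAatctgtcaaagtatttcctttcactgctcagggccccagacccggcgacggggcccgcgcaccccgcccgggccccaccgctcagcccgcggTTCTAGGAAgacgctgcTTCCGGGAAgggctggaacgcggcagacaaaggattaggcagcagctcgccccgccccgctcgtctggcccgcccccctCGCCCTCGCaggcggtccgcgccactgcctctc
DUSP1: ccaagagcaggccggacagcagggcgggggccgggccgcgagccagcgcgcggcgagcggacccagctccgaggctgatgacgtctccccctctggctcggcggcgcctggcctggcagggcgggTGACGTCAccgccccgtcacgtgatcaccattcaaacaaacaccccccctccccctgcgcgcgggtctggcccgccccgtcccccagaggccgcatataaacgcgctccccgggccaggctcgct
The EGR1 window held 2 CArG boxes, at -105 to -96 and -83 to -74 from the start, with a GAS element at -228 to -220 and an EGR site at -198 to -190. The CISH window held 4 GAS elements, at -241 to -233, -230 to -222, -129 to -121 and -112 to -104, and an EGR site at -33 to -25. DUSP1 held a cAMP response element at -125 to -118. The windows of FOS, IER2 and FOSB held none of the 4 motifs as spelled here.

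Over 27305 gene promoters of the same length, 1.14% held a CArG box, 1.77% a cAMP response element, 6.78% a GAS element and 8.25% an EGR site. Of the 20 immediate-early transcription factors with a promoter in the table, 2 held a CArG box (10.0%), 2 a cAMP response element and 5 an EGR site (25%). Among the genes at least 2-fold lower in Orange (defined below), 288 had a promoter in the table, of which 0.694% held a CArG box, 4.86% a GAS element and 17.4% an EGR site, against 1.01%, 5.63% and 13.4% of the 7589 genes tested that had one. These matches are a description of the letters in the windows.

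The kept libraries held 722407 to 1690631 reads on genes, with a median of 1227166 in Orange and 1216634 in Green. Orange libraries held a median of 7748 genes at more than 2 reads and Green libraries 8052. Mitochondrially encoded genes took a median of 7.05% of reads in Orange and 6.35% in Green, and the spiked ERCC sequences 9.06% and 7.85% of all reads. The line's identity was as its labels give it. All 12 K562 markers were detected, with summed levels of 2447 CPM in Orange and 2470 CPM in Green for the fetal globin HBG2 and 3567 and 3414 CPM for the tumour antigen PRAME, while CDKN2A and CDKN2B, which lie in a locus the line has lost, had 0 reads in both stains. A count of 0 over a stain allows a level of up to 0.0558 CPM in Orange and 0.0503 CPM in Green (3 counts of the total). Of 15 markers of other cell types found in the table, 3 passed the detection filter, LYZ (41.9 CPM in Orange and 34 in Green), EPCAM (35.8 and 34.2 CPM) and CD3D (8.84 and 9.53 CPM). The summed level of the 15 per library ran from 11.3 to 331 CPM in Orange with a median of 70 CPM and from 0.973 to 328 CPM in Green with a median of 46.6 CPM, with 7 of the 15 at 0 in each stain, the B cell markers MS4A1 and CD79A and the endothelial marker VWF among them.

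Reads were summed over the libraries of a stain and expressed as CPM, counts per 1000000 reads on genes, and a ratio is log2 of summed CPM plus 1 in Orange over the same in Green, so a negative ratio means a lower level with imatinib. A gene was tested for fold when more than 2 reads were present in at least 20% of the kept libraries, which left 10496 genes with a median ratio of -0.02. Of these, 3.95% were at least 2-fold lower in Orange (415 genes), 3.05% at least 2-fold higher (320 genes), 11.4% at least 1.5-fold lower and 9.24% at least 1.5-fold higher. By sign alone, 52.6% of the genes tested were lower in Orange.

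The 3 immediate-early markers of the comparison were all lower with imatinib. EGR1 (ENSG00000120738, chromosome 5, 137801168 to 137804992 on GRCh37), a zinc finger transcription factor, was between 2.48 and 555 CPM in Orange libraries with a median of 160 CPM, and between 21.6 and 1436 CPM in Green libraries with a median of 399 CPM. The stains overlapped, but 38 of 43 Orange libraries lay below the Green median and 4 of 48 Green libraries below the Orange median. The summed level was 187 CPM in Orange (exact Poisson 95% interval 184 to 191) and 504 CPM in Green (499 to 510), a log2 ratio of -1.42. Such intervals, and the exact binomial intervals on shares of libraries given below, cover counting error only. The reads carry no molecular identifiers, and cells of 1 stain are not replicates of a condition, so no interval covers the spread between cultures and intervals that do not overlap are no test of a difference. EGR1 was present at more than 2 reads in every kept library of both stains, and the mean of log2(CPM + 1) was 6.77 ± 1.96 (SD over 43 libraries) in Orange and 8.67 ± 1.09 (SD over 48) in Green.

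FOS (ENSG00000170345, chromosome 14, 75745529 to 75748933), a subunit of the AP-1 factor, ran from 0 to 1872 CPM in Orange libraries with a median of 66.6 CPM and from 0.899 to 1642 CPM in Green with a median of 325 CPM. Its summed level was 191 CPM in Orange and 450 CPM in Green (log2 ratio -1.23), and 35 of 43 Orange (81.4%, exact 95% interval 66.6 to 91.6%) and 46 of 48 Green libraries (95.8%, 85.7 to 99.5%) held more than 2 reads. FOS was the most uneven of the 3, since the highest Orange library exceeded every Green library while the first quartile of Orange libraries was 2.65 CPM. IER2 (ENSG00000160888, chromosome 19, 13261225 to 13265725), a nuclear regulator of early transcription, had a median of 7.32 CPM in Orange (0 to 116 CPM) and 27.5 CPM in Green (0 to 152 CPM). Its summed level was 14.1 against 34.5 CPM, a log2 ratio of -1.24, and it was detected in 29 of 43 Orange and 43 of 48 Green libraries. The IER2 exons overlap another annotated gene, ENSG00000267598, and the counting is not stated to use strand.

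FOSB, the close relative of FOS, had the lowest ratio of the genes named by rank. It was at 0 in 28 of 43 Orange and 12 of 48 Green libraries, with medians of 0 and 12.2 CPM and highest libraries of 185 and 484 CPM. It was detected in 7 of 43 Orange libraries (16.3%, 6.81 to 30.7%) and 31 of 48 Green libraries (64.6%, 49.5 to 77.8%), and its summed level was 5.40 CPM in Orange and 40.3 CPM in Green, a log2 ratio of -2.69, which lay between -3.72 and -2.31 when each library was left out in turn. When EGR1, FOS, IER2 and FOSB were scored together, all 4 were present at more than 2 reads in 5 of 43 Orange libraries (11.6%) and 28 of 48 Green libraries (58.3%). This count cannot exceed the 7 Orange and 31 Green libraries with FOSB, which was picked for its low ratio. It is therefore no separate result on the 4 genes together.

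**Figure D1:**
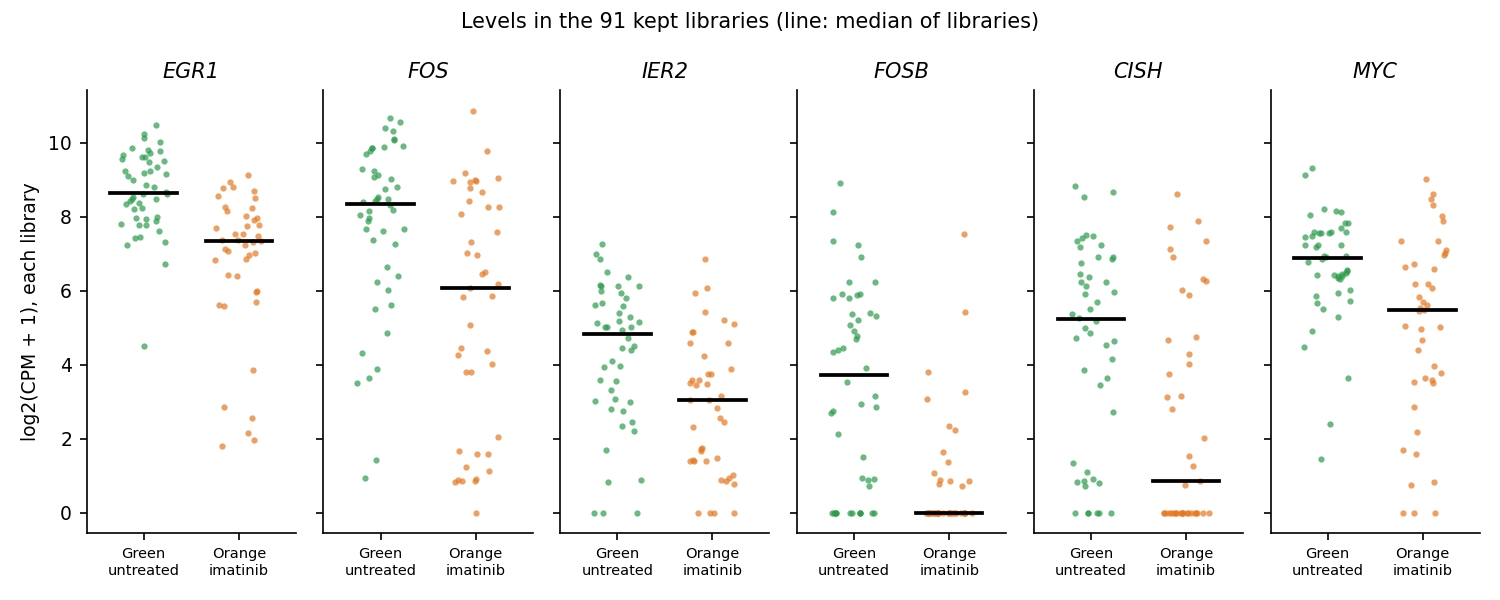
Level of EGR1, FOS, IER2, FOSB, CISH and MYC in each of the 91 kept libraries on a log2(CPM + 1) scale (vertical axis), with Green untreated libraries in green, Orange imatinib libraries in orange and a line at the median of each stain. For all 6 genes the Orange median lies below the Green median, from 160 against 399 CPM for EGR1 to 0 against 12.2 CPM for FOSB, and the points of the stains overlap.

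Of the 25 listed immediate-early transcription factors, 15 passed the detection filter, and their median log2 ratio was -1.03 against -0.02 over all genes tested. Of these 15, 10 were at least 1.5-fold lower in Orange and 1 at least 1.5-fold higher, and 8 were at least 2-fold lower and 0 at least 2-fold higher. Over all genes tested the 4 shares were 11.4%, 9.24%, 3.95% and 3.05%. Beside EGR1, FOS and FOSB, the AP-1 subunit JUN was at 5.56 CPM in Orange and 22.0 CPM in Green (log2 ratio -1.81). The stress-responsive factor ATF3 was at 2.88 and 11.4 CPM (-1.68). The zinc finger factor KLF6 was at 31.3 and 78.7 CPM (-1.30). The nuclear receptor NR4A2 was at 11.4 and 24.3 CPM (-1.03) and was detected in 14 of 43 Orange and 34 of 48 Green libraries. CSRNP1, a nuclear protein induced by AXIN signalling, was at 4.67 and 13.8 CPM (-1.39). Leaving out each library in turn gave NR4A2 ratios between -1.38 and -0.59, with KLF6, JUN, ATF3 and CSRNP1 at or beyond -1.09 throughout. For KLF6, JUN, ATF3 and CSRNP1, detection by the number of genes in a library is given below.

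The members differed in direction. JUNB was at 10.1 CPM in Orange and 6.42 CPM in Green (log2 ratio 0.58) and BHLHE40, a repressor of the circadian clock, at 28.9 and 17.2 CPM (0.71), while JUND differed by -0.32 and was detected in every library. JUNB shares exon positions with HOOK2 and BHLHE40 with BHLHE40-AS1. KLF10 turned from 0.34 to -0.36 when the highest library of each stain was left out, and SRF moved from -0.80 to -0.43. Of the 10 members under the filter, EGR2, EGR3 and EGR4 had 0 reads in both stains, KLF4 was detected in 0 Orange and 4 Green libraries and MAFF in 7 and 10, and NR4A3 in 1 Orange library.

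All 16 of the 25 other immediate-early genes that passed the filter had a lower summed level in Orange, with a median log2 ratio of -0.66, and 10 of them were at least 1.5-fold and 6 at least 2-fold lower. Of all genes tested, 52.6% were lower, 11.4% by at least 1.5-fold and 3.95% by at least 2-fold. The filter ran over both stains together, and NFKBIZ, PLK3 and the transcription factor FOSB passed it only through the Green libraries, with detection in 18.6%, 14% and 16.3% of Orange libraries, so their place among the lower genes is in part set by the filter. DUSP1 ran from 0 to 391 CPM in Orange with a median of 2.04 CPM and from 0 to 959 CPM in Green with a median of 26.2 CPM. Its summed level was 27.2 against 70.1 CPM, a log2 ratio of -1.33. NFKBIZ, a regulator of NF-κB, was at 1.73 CPM in Orange and 11.7 CPM in Green (-2.22), the polo-like kinase PLK3 at 4.35 and 14.3 CPM (-1.51), the growth arrest gene GADD45A at 10.7 and 22.6 CPM (-1.01) and ZFP36, which speeds the decay of AU-rich messages, at 3.42 and 7.96 CPM (-1.02). NFKBIZ, PLK3 and ZFP36 were present in few libraries, 8, 6 and 11 of 43 in Orange and 16, 13 and 21 of 48 in Green. With each library left out in turn, ZFP36 lay between -1.83 and -0.90 and GADD45A between -1.24 and -0.87. The survival factor MCL1 was at 17 and 33.9 CPM (-0.96) and PPP1R15A, a phosphatase subunit of the stress response, at 52.6 and 85.1 CPM (-0.68), whereas ODC1, ZFP36L1 and IER5 had ratios of -0.16, -0.04 and -0.14.

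Summed over the list, the transcription factors were between 48 and 2513 CPM in Orange libraries with a median of 557 CPM and between 110 and 3200 CPM in Green with a median of 1170 CPM. Of 43 Orange libraries, 39 lay below the Green median, and 3 of 48 Green libraries lay below the Orange median. The other immediate-early genes had median sums of 681 CPM in Orange and 989 CPM in Green. Fewer messages per cell in all cells and fewer cells with messages cannot be told apart from the sums alone, and the counts of libraries with more than 2 reads are given for that reason.

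**Figure D2:**
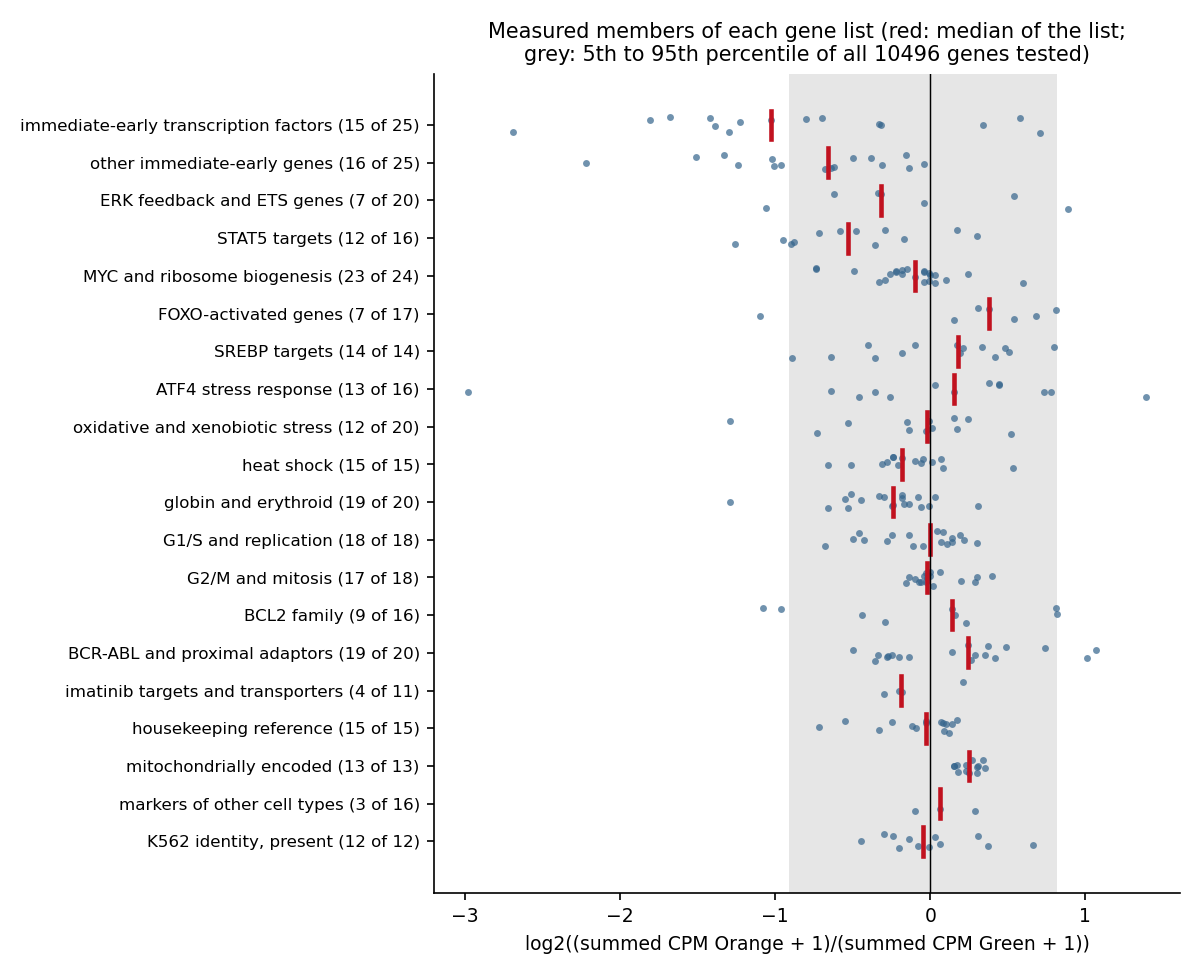
Log2 ratio of Orange over Green summed CPM plus 1 (horizontal axis) for each measured member (points) of the gene lists (rows, with the number tested of the number listed), with the list median in red and the 5th to 95th percentile of all 10496 genes tested in grey. The medians of the immediate-early lists, -1.03 and -0.66, and of the STAT5 targets, -0.53, lie to the left of 0, and those of the cell cycle and housekeeping lists lie between -0.03 and 0.00.

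The difference in FOS depended on the number of genes a library held, a split made after the data were seen. The median over the 91 kept libraries was 7995 genes, and 19 Orange and 27 Green libraries lay at or above it while 24 Orange and 21 Green lay below. At or above the median, FOS had a median of 18.3 CPM in Orange and 447 CPM in Green libraries, and its log2 ratio was -3.48. Below the median, FOS had a median of 288 CPM in Orange and 204 CPM in Green libraries, and its log2 ratio was 0.14. Across the 43 Orange libraries FOS had a Spearman's rho of -0.43 with the number of genes, and across the 48 Green libraries a rho of 0.31. These are descriptions over cells of 1 culture each, and level and number of genes come from the same reads.

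EGR1 was lower in Orange in both sets. Its median was 242 CPM in Orange and 389 CPM in Green libraries at or above 7995 genes (log2 ratio -1.02) and 122 and 449 CPM below (-1.96). IER2 was lower in Orange in both sets, with ratios of -1.75 and -0.97, as was FOSB, with -3.43 and -2.14. DUSP1 and MYC also had lower ratios in the libraries with more genes, with values of -3.02 and -1.42 at or above 7995 genes and -0.57 and -0.27 below. The list medians were -1.03 and -0.58 for the transcription factors and -1.05 and -0.66 for the other immediate-early genes, against -0.04 and 0.00 over all genes tested. By sign, 5670 of the 10496 genes tested were lower in Orange at or above 7995 genes and 5255 below. At or above 7995 genes and below, JUN had ratios of -2.23 and -1.29, KLF6 of -1.59 and -0.90 and ATF3 of -1.62 and -1.80. CSRNP1 was at 3.55 against 14.8 CPM and 5.72 against 12.4 CPM in the same sets. Below, the library medians of JUN and KLF6 were higher in Orange, at 5.26 against 3.90 CPM and 8.32 against 4.27 CPM. At or above, both medians were lower in Orange. Some members named above turned direction in summed level between the sets. BHLHE40 was lower in Orange at or above 7995 genes (11.9 against 24.7 CPM, -1.0) and higher below (44.7 against 6.62 CPM, 2.59). IER5 had ratios of -0.96 and 0.24, and ZFP36L1 of 0.62 and -0.98. At or above 7995 genes, JUN was detected in 10 of 19 Orange and 22 of 27 Green libraries. In that set KLF6 was detected in 15 and 24, ATF3 in 7 and 12 and CSRNP1 in 6 and 16. Below, JUN was detected in 16 of 24 Orange and 12 of 21 Green libraries. In that lower set KLF6 was detected in 17 and 13, ATF3 in 7 and 7 and CSRNP1 in 4 and 7.

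The libraries with fewer genes also held more spiked and mitochondrial reads in both stains. ERCC sequences took a median of 12.7% of reads in the Orange and 12.4% in the Green libraries below 7995 genes, and 5.56% and 6.43% at or above it. Mitochondrially encoded genes took 10.3% and 9.37% below and 5.57% and 5.26% at or above. The part of these measures in the FOS values was not tested.

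**Figure D3:**
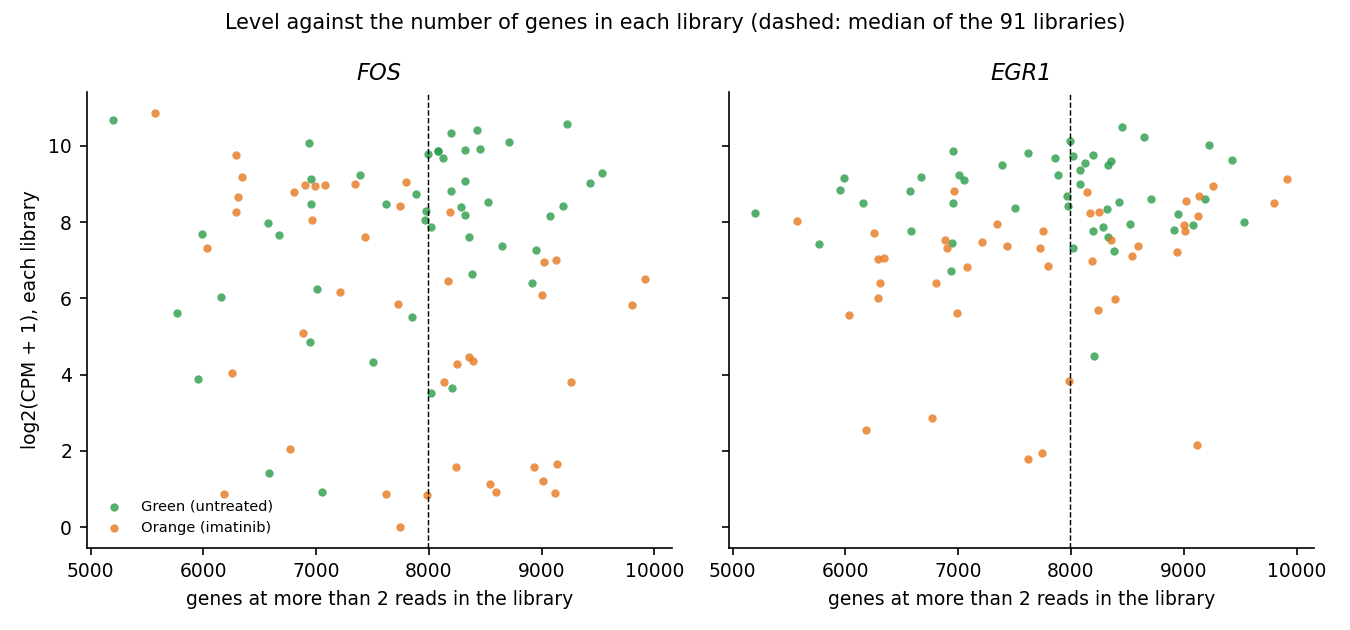
Level of FOS (left) and EGR1 (right) on a log2(CPM + 1) scale against the number of genes at more than 2 reads in each of the 91 kept libraries, Orange imatinib libraries in orange and Green untreated libraries in green, with a dashed line at the median of 7995 genes. To the right of the line FOS has a median of 18.3 CPM in Orange and 447 CPM in Green, and to the left the stains mix, at 288 and 204 CPM, while EGR1 lies lower in Orange on both sides.

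The run also held 4 libraries, 2 of each stain, with 10000 or more genes (10750 to 11383 in Orange and 11208 to 12134 in Green). The labels do not say what these libraries are. The study also sequenced bulk samples, made from many cells at once, together with the single cells. It lists 2 fresh and 2 fixed bulk samples for each experiment with CellTracker dyes. Whether these 4 libraries are such samples was not tested. They entered none of the sums above, but the labels name no separate cultures for them. Both Orange libraries lay below both Green libraries in 13.8% of the 10496 genes, and above both in 7.72%. EGR1 was at 2.06 and 22.2 CPM in the Orange and 35.2 and 148 CPM in the Green libraries, and FOS at 1.37 and 19.5 against 200 and 366 CPM. FOSB, DUSP1, IER2 and ATF3 were likewise below in both Orange libraries, DUSP1 at 2.02 and 3.43 against 12.3 and 71 CPM. Of the 31 immediate-early genes tested, 11 lay below both Green libraries and 0 above, with JUN, KLF6 and NR4A2 among those that overlapped. BHLHE40, higher in Orange among the kept libraries, was below here, at 14.8 and 22.6 against 28.5 and 47.5 CPM.

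Of the 12 STAT5 targets tested, 4 lay below both Green libraries and 0 above, against 13.8% and 7.72% of all genes. CISH, a cytokine-inducible inhibitor of STAT5 signalling, was at 9.59 and 14.8 CPM in Orange and 103 and 129 CPM in Green, and the survival kinase PIM1 at 11.4 and 17.1 against 65.4 and 111 CPM. MYC was at 51.8 and 71.3 CPM in Orange and 235 and 344 CPM in Green. BCL2L11, which encodes the pro-apoptotic protein BIM, was higher in Orange, at 21.2 and 21.5 against 6.71 and 11.4 CPM. CCND2, at 202 and 247 against 204 and 214 CPM, overlapped.

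**Figure D4:**
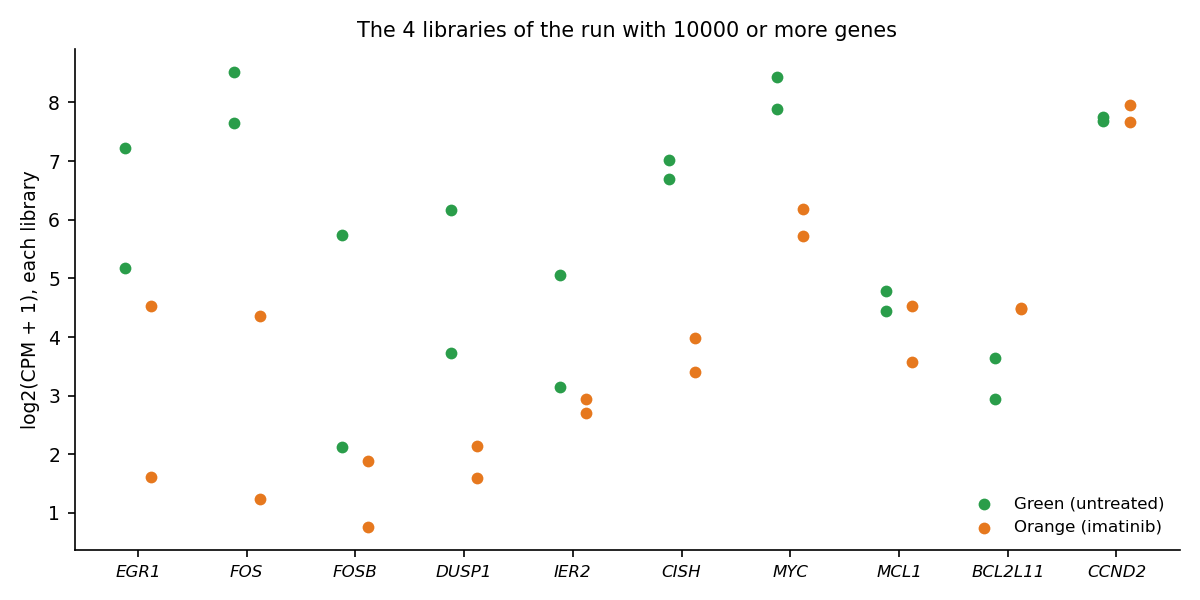
Level of 10 genes on a log2(CPM + 1) scale in the 4 libraries of the run with 10000 or more genes, each point a library, Green untreated in green and Orange imatinib in orange. Both Orange points lie below both Green points for EGR1, FOS, FOSB, DUSP1, IER2, CISH and MYC and above them for BCL2L11, and they overlap for MCL1 and CCND2.

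In the kept libraries, 12 of 16 STAT5 targets passed the filter, with a median log2 ratio of -0.53. Of these, 5 were at least 1.5-fold lower in Orange and 0 higher, against 11.4% and 9.24% of all genes tested. The median of the targets was -0.85 in libraries at or above 7995 genes, with 11 of 12 lower, and -0.17 below, with 7 lower and 5 higher. CISH was at 0 in 20 of 43 Orange and 6 of 48 Green libraries, with medians of 0.816 and 36.5 CPM and highest libraries of 388 and 453 CPM. Its summed level was 38.3 CPM in Orange and 74.8 CPM in Green, a ratio of -0.95, and it was detected in 19 of 43 and 35 of 48 libraries. Leaving out each library in turn gave CISH ratios between -1.28 and -0.80. ID1, an inhibitor of differentiation factors, was at 4.86 and 13 CPM (-1.26) and the kinase PIM3 at 2.94 and 6.27 CPM (-0.88), and IL2RG, the common cytokine receptor chain, at 11.3 and 21.9 CPM (-0.90), with -1.83 at or above 7995 genes and 0.11 below. SOCS2, a feedback inhibitor of cytokine signalling, was at 35.1 and 52.8 CPM (-0.58). PIM1 was at 45.8 and 51.8 CPM (-0.17), a value over opposite differences, since it was lower in Orange at or above 7995 genes (25.6 against 56.6 CPM, -1.11) and higher below (64.6 against 44.9 CPM, 0.52). CCND2 had a ratio of 0.17, with -0.07 and 0.35 in the same sets.

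MYC, the growth-promoting factor, had a median of 118 CPM over Green libraries and 43.2 CPM over Orange libraries, with 32 of 43 Orange libraries below the Green median. Its summed level was 85.5 CPM in Orange and 143 CPM in Green, a ratio of -0.74. The list of MYC and the ribosome biogenesis genes it controls had a small median ratio, -0.10 over the 23 members tested. By sign, 17 of the 23 were lower in Orange (73.9%), against 52.6% of all genes tested. Nucleolin NCL was at 932 and 913 CPM and nucleophosmin NPM1 at 1820 and 1875 CPM. Both were sums over opposite differences, with ratios at or above 7995 genes and below of -0.18 and 0.21 for NCL and 0.11 and -0.20 for NPM1.

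The ERK feedback and ETS genes were sparse, with 7 of 20 passing the filter and a median of -0.32. The ETS factor ETV5 was at 14 CPM in Orange and 30.2 CPM in Green (-1.06), whereas ETV4 was at 55.9 and 38.2 CPM (0.54) and ETV1 at 16.3 and 8.33 CPM (0.89). These values turned with the number of genes. At or above 7995 genes the list median was -0.83, with ETV4 at -0.04 and ETV1 at -0.55, and below it was 0.13, with ETV4 at 1.30 and ETV1 at 2.72, while ETV5 was lower in both sets (-1.31 and -1.07). ETV5 was detected in 22 of 43 Orange and 36 of 48 Green libraries. In the 4 libraries with 10000 or more genes, 1 of the 7 lay below in both Orange libraries and 2 above. SPRY4, an inhibitor of RAS signalling below the filter, was detected in 3 of 43 Orange and 13 of 48 Green libraries. DUSP6, the ERK phosphatase often read as an output of the cascade, was detected in 2 Orange and 1 Green library and gives no comparison at this depth.

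FOXO factors activate genes of arrest and cell death. Of 17 listed, 7 passed the filter, and 6 of those had a higher summed level in Orange, with a median of 0.38. Over all 10496 genes tested, 4976 were higher in Orange. By at least 1.5-fold, 2 of the 7 were higher and 1 lower, against 9.24% and 11.4% of all genes tested. BCL2L11 was at 43.4 CPM in Orange and 24.3 CPM in Green (0.81), and 35 of 48 Green libraries lay below the Orange median. BNIP3, a mitochondrial BH3 protein, was at 56.9 and 35.1 CPM (0.68) and KLHL24, an adaptor of ubiquitin ligases, at 14.4 and 9.62 CPM (0.54). The exception was the cell cycle inhibitor CDKN1B at 1.34 and 4.02 CPM (-1.10), which moved to -0.53 without the highest library of each stain. BCL2L11 shares exon positions with MIR4435-2HG. In the 4 libraries with 10000 or more genes, 2 of the 7 lay above in both Orange libraries and 0 below. Over all genes the shares were 7.72% and 13.8%.

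Of the 16 listed BCL2 family members, 9 passed the filter, with a median of 0.14. The pore-forming protein BAK1 was at 16.2 CPM in Orange and 35.2 CPM in Green (-1.08, and between -1.37 and -0.83 with each library left out in turn), and BCL2L1, which encodes BCL-XL, at 52.6 and 64.5 CPM (-0.29). Among BCR-ABL and its adaptors, the docking protein GAB1 was at 13.5 and 5.90 CPM (1.07) and the RAS exchange factor SOS2 at 13.3 and 6.12 CPM (1.01), which was 0.75 without the highest library of each stain. The median of these 19 genes was 0.24. BCR and ABL1 themselves, which the counts do not join into the fusion, were at 71.4 and 55.2 CPM and at 176 and 201 CPM, and the BCR ratio was 1.04 at or above 7995 genes and -0.31 below. The imatinib-sensitive receptors KIT, PDGFRA and PDGFRB were at or near 0 in both stains, and the drug efflux transporters ABCB1 and ABCG2 each had 0 reads.

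Other lists lay near the median of all genes. The G1/S genes had a median ratio of 0.00 over 18 members and the G2/M genes of -0.02 over 17. The G2/M value was over opposite shifts, with a median of -0.22 and 13 of 17 lower in Orange at or above 7995 genes and a median of 0.22 and 14 of 17 higher below. The summed ratios were 0.00 for both MKI67 and CDK1. The housekeeping list had a median of -0.03 over 15, between -0.72 for GUSB and 0.17 for GAPDH. SREBP targets, ATF4 targets, oxidative stress genes and heat shock genes had medians of 0.18, 0.15, -0.02 and -0.18. Within them, the cystine transporter SLC7A11 was higher in Orange at 39.3 against 14.4 CPM (1.39) and was detected in 31 of 43 and 28 of 48 libraries, and GCLC, which makes glutathione's precursor, was lower at 7.41 against 19.6 CPM (-1.29). DDIT4, an inhibitor of mTORC1, had a ratio of -2.98 that became -1.57 without the highest library of each stain. It was detected in 2 of 19 Orange and 7 of 27 Green libraries at or above 7995 genes. Below, it was detected in 5 of 24 and 5 of 21, and its median was 0 CPM in each stain of both sets. It too passed the filter only through the Green libraries.

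Globin and erythroid genes had a median of -0.24, and 17 of 19 were lower in Orange, against 52.6% of all genes tested. By at least 1.5-fold, 2 of the 19 were lower, against 11.4% of all genes tested. At or above 7995 genes 18 of 19 were lower, with a median of -0.36, and below 10 of 19 were lower, with a median of 0.00. HBG2 and HBG1 were even at -0.01 and 0.03, the transferrin receptor TFRC was at 398 and 584 CPM (-0.55), and EPOR was at 9.36 and 24.3 CPM (-1.29). All 13 mitochondrially encoded genes were higher in Orange, between 0.15 and 0.35, with a median of 0.25. Among libraries at or above 7995 genes, 9 of those 13 were lower in Orange and the median was -0.07. In the 4 libraries with 10000 or more genes, the globin and erythroid genes had a median ratio of 0.00. There 6 of the 19 lay above in both Orange libraries, against 7.72% of all genes, and 3 below, against 13.8%.

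The benzene run carried the same dyes with another drug, and its values are given side by side. There 19.9% of 8881 genes were at least 1.5-fold lower in Orange and 22.6% at least 1.5-fold higher. EGR1 was at 192 CPM in Orange and 279 CPM in Green of the benzene run (log2 ratio -0.54), FOS at 150 and 224 CPM (-0.57), IER2 at 29.7 and 38.4 CPM (-0.36) and FOSB at 17.4 and 18 CPM (-0.05). CISH and MYC had ratios of -0.15 and -0.09. The 15 immediate-early transcription factors tested there had a median of 0.04, with 3 at least 1.5-fold lower and 4 higher. In that run too the value depended on the number of genes, with a median of -0.40 and 11 of 15 lower in Orange at or above the run's median number and a median of 0.52 with 9 of 15 higher below it. Over the 8881 genes, 4280 were lower in Orange at or above that number and 4729 higher below it. The 11 STAT5 targets tested there had a median of 0.36, with 0 at least 1.5-fold lower and 4 at least 1.5-fold higher. The 5 FOXO-activated genes tested there had a median of 1.90. DUSP1 was lower in Orange there as well (-1.67), and JUN (-1.20). The difference between the runs was not tested, since each holds 1 sample per stain.

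Over all genes, some large ratios rested on a few libraries. In the median gene at least 2-fold lower in Orange, 1 Green library held 24.8% of the CPM added over Green libraries. In the median gene at least 2-fold higher, 1 Orange library held 28.1% of the CPM added over Orange libraries. The same share over all genes tested was not computed, so these values have no baseline. Of the 415 lower genes, 335 (80.7%) kept at least 2-fold without the highest library of each stain, and of the 320 higher genes, 222 (69.4%). In the 4 libraries with 10000 or more genes, 85 of the 415 lower genes (20.5%) lay below in both Orange libraries, against 13.8% of all genes, while 42 (10.1%) lay above, against 7.72% of all genes. Of the 320 higher genes, 41 (12.8%) lay above, against 7.72% of all genes, and 50 (15.6%) lay below, against 13.8% of all genes.

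Genes were named by rank from those at 20 CPM or more that kept 2-fold without the highest library of each stain. The 10 lowest were FOSB, MIR23AHG (log2 ratio -2.46), RIPOR3 (-2.46), STK11IP (-2.17), KIAA1522 (-2.15), POLL (-2.09), DHTKD1 (-2.00), C3orf62 (-1.88), GABRE (-1.88) and B4GALT7 (-1.73). MIR23AHG, the host transcript of the miR-23a cluster, was detected in 8 of 43 Orange libraries, under 20%, and 17 of 48 Green libraries. Like FOSB, it passed the filter only through the Green libraries, so the place of both in this ranking is in part set by the filter. MIR23AHG had a median of 0 CPM in both stains, with 1 Green library at 1579 CPM. Its ratio lay between -3.09 and -1.60 when each library was left out in turn. In the libraries with 10000 or more genes, 4 of the 10 lay below in Orange, against 13.8% of all genes, 1 above, against 7.72%, and 5 overlapped.

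The 10 highest were AGO4 (1.85), CLPB (1.84), UNK (1.79), ERGIC1 (1.72), ATP9B (1.72), GALK1 (1.6), LINC01278 (1.54), SNHG11 (1.52), KLHDC4 (1.5) and CSRP1 (1.49). UNK, a zinc finger RNA-binding protein, had a median of 23.8 CPM in Orange libraries (0 to 237 CPM) and 4.14 CPM in Green (0 to 73.1 CPM), and CLPB, a mitochondrial disaggregase, 3.93 CPM (0 to 390 CPM) and 0 CPM (0 to 165 CPM). In the libraries with 10000 or more genes, 1 of these 10 lay above in Orange, against 7.72% of all genes, 4 below, against 13.8%, and 5 overlapped.

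**Figure D5:**
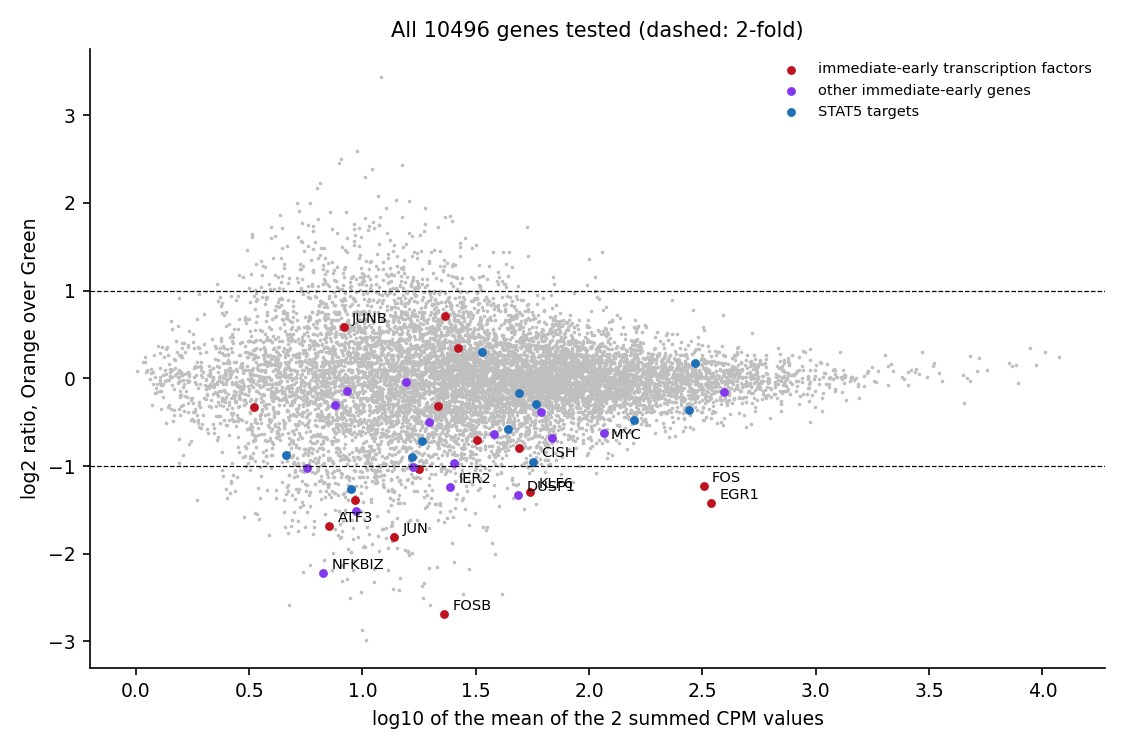
Log2 ratio of Orange over Green (vertical axis) against log10 of the mean of the summed CPM values of the stains (horizontal axis) for the 10496 genes tested, in grey, with immediate-early transcription factors in red, other immediate-early genes in purple and STAT5 targets in blue, and dashed lines at 2-fold. EGR1 and FOS, at -1.42 and -1.23, lie below the lower line, and of the genes at least 2-fold apart, 96 of 415 lower and 73 of 320 higher had a mean of 20 CPM or more.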

How the data were processed

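The authors made the deposited counts from paired reads trimmed with skewer, aligned with HISAT2 to GRCh37 and counted per Ensembl gene with featureCounts (Subread 1.5.0), with duplicates marked by Picard 1.92. Whether marked duplicates were counted, and whether strand was used, is not given in the sources used here. In the count table, 4 columns matched no library title and were not used. The deposited CPM table was not used. Kept libraries held 722407 to 1690631 reads on genes. ERCC rows were left out of totals, counts were summed per stain, and CPM, fold and exact Poisson or binomial intervals (95%) were computed in Python (3.11.15) from pandas (2.3.3) tables, with scipy (1.17.1) for intervals and numpy (2.4.6) for arithmetic. edgeR 4.0.16 and DESeq2 1.42.0 gave alternative scaling factors. Cells of a stain are 1 sample, so no test was run, and no doublet caller was used. Only the ratio step was tested on simulated data, with counts lowered by a known fold. Named genes were EGR1, FOS, IER2, list members at least 2-fold apart, and the 10 lowest and 10 highest genes with a mean of 20 CPM that had the same sign in mean log2(CPM + 1) and kept 2-fold without the highest library of each stain; other genes were chosen after their values were seen. The members and lists were chosen with earlier results of these data known. Gene positions are those of GENCODE on GRCh37.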

Additional observations from a re-analysis of the deposited data

How the results depend on the processing

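No paired analysis was possible because the stains share no numbered cultures and no test was run. With a pseudocount of 10, the log2 ratios of EGR1, FOS and IER2 were -1.38, -1.19 and -0.89, the median of the immediate-early transcription factors was -0.68, and 74 genes were at least 2-fold lower and 41 higher. With the mean of CPM over libraries, EGR1 was at -1.46 and FOS at -1.11, and with the mean of log2(CPM + 1) EGR1, FOS and IER2 were at -1.90, -2.30 and -1.41, with 194 genes lower and 108 higher. With each library thinned to 500000 reads, EGR1 was at -1.46 and FOS at -1.11. With all 96 libraries FOS was at -1.26, and without the highest library of each stain FOS was at -1.42 and IER2 at -1.38. No filter on genes gave 1295 lower and 1337 higher genes, detection in 50% of libraries 102 and 64, and a 1.5-fold limit 1201 and 970. The split at 7995 genes was chosen after seeing the data. At or above it, EGR1, FOS and IER2 were at -1.02, -3.48 and -1.75, with 688 lower and 374 higher genes. Below it, EGR1 and IER2 were at -1.96 and -0.97, FOS reversed to 0.14, the transcription factors had a median of -0.58, and there were 1058 lower and 1133 higher genes. The cause of these shifts was not tested. No scaling moved the median of all genes by more than 0.1. EGR1, FOS, IER2 and the transcription factor median were negative under every alternative run other than FOS in that lower set.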

Other observations

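Several ratios rested on 1 library. RTL6 had a log2 ratio of -1.48 that became 1.89 without the highest library of each stain, since 1 Green library held 1152 CPM, the next 11 CPM and the median 0. ENSG00000183941 went from -2.08 to 0.00, with 1 Green library at 517 CPM. SLC22A23, PODXL2 and E2F7, higher in Orange at 1.5, 1.68 and 1.46, went to -0.15, 0.14 and 0.05, with 1 Orange library of each at 776, 461 and 693 CPM. These genes were chosen after their values were seen.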
